A study of Homo sapiens with 3 samples.

Results

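The AP-1 and EGR immediate early genes analyzed here were FOS, FOSB, FOSL1, FOSL2, JUN, JUNB, JUND, EGR1, EGR2 and EGR3. They were taken by symbol from a count table, 10 of its 58037 genes, and all are reported whatever their values. The choice was made with earlier results of these data known. RNA sequencing of poly(A) RNA was available from the human melanoma line A375, an established cell line that carries mutant BRAF, as 3 libraries, 1 per group. The control cells were kept in serum-free DMEM, the YA cells in the secretome of young adipocytes and the OA cells in that of old adipocytes, and the series description gives an exposure of 24 h. The treatment text of the samples gives a range that starts at that time and runs longer. The secretomes were serum-free medium conditioned by adipocytes differentiated in culture from human preadipocytes, so the control differed from both in never having been in contact with cells. How many donors or wells stood behind each library was not given in the sources used here.

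In the order control, YA, OA, which is kept throughout, the libraries held 21448195, 21306558 and 18089008 counts, of which the members took 0.147%, 0.176% and 0.162%. Normalized counts are counts divided by size factors (DESeq2, median of ratios) of 1.06, 1.06 and 0.891. Fold changes are ratios of these normalized counts with 95% Clopper-Pearson intervals, which, like the other intervals here, cover counting error only and compare libraries rather than conditions. No difference below had a replicate check, and no p-value was computed. YA and OA were each compared with the same control library, so the 2 comparisons share its error. In A375, the melanocytic marker SOX10 was at 0 counts in the 3 libraries and MITF, the master regulator of the melanocyte lineage, was at 1221, 764 and 881 counts. Exons of SOX10 overlap POLR2F on the other strand over 89 of their 3710 bases, a small part, and the use of strand in counting was not given. Whether 0 counts meant that the SOX10 transcript was absent was not tested. Of the 9 melanocytic lineage markers listed, 3 passed the filter on low values described below.

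AP-1 is a dimer of leucine zipper proteins, usually of a FOS family with a JUN family member, that binds DNA and sets the transcription of genes of growth, invasion and stress responses. FOS, FOSB, JUN, JUNB, EGR1, EGR2 and EGR3 are classical immediate early genes, switched on within minutes of a stimulus without new protein synthesis, largely through the MAP kinase pathway acting on SRF with its ETS partners and on CREB. Their transcripts are short-lived. FOSL1 and FOSL2 lack the strong activation domain of FOS and accumulate more slowly, and in melanoma driven by mutant BRAF, FOSL1 is held up by the constantly active pathway. EGR proteins are zinc finger factors that share a GC-rich binding site and are restrained by the NAB co-repressors.

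On GRCh38 as annotated by GENCODE 29, FOS (ENSG00000170345.9) spans chr14:75278774-75282230 on the plus strand and FOSB (ENSG00000125740.13) chr19:45467995-45475179, also on the plus strand. FOSL1 (ENSG00000175592.8) lies at chr11:65892049-65900573, minus strand, and FOSL2 (ENSG00000075426.11) at chr2:28392448-28417312, plus strand. The 3 JUN genes are each a single exon, JUN (ENSG00000177606.6) at chr1:58780788-58784327 and JUND (ENSG00000130522.5) at chr19:18279760-18281622 on the minus strand, and JUNB (ENSG00000171223.5) at chr19:12791496-12793315 on the plus strand. EGR1 (ENSG00000120738.7) spans chr5:138465490-138469315 on the plus strand, and EGR2 (ENSG00000122877.14) chr10:62811996-62919900 on the minus strand. EGR3 (ENSG00000179388.8) runs from 22687659 to 22693302 on the minus strand of chromosome 8. Over 259 of its 1820 bases, JUNB overlaps exons of HOOK2 on the other strand, and the use of strand in counting was not given in the sources used here. HOOK2 had 382, 516 and 319 counts against 2089, 2410 and 2556 for JUNB. EGR3 overlaps a non-coding gene over 164 bases.

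Promoter sequence was used for 8 of the 10 members, those with an entry in the promoter set used here, which follows RefSeq on GRCh38.p14. That set held no entry for FOSL1 and EGR3, which is a gap of the set and not a finding about these genes. In the 250 bases before the annotated start, searched on both strands, TGACG, the core that CREB and ATF proteins bind, was found in 8 of 8 members, in 8 of their 10 annotated start windows, against 21.2% of 35116 promoter windows of the same length. It lay 64 bases before the start in FOS and 60 in FOSB, 123 in JUN and 137 in JUNB, and 135 and 66 in EGR1. The complete cAMP response element TGACGTCA, which contains 2 overlapping TGACG matches, was found in JUND alone, against 1.65% of windows. A CArG box, the site of SRF, was found in EGR1, 105 and 83 bases before the start, and at the third annotated start of EGR2, against 1.16% of windows. EGR1 also held GCGNGGGCG, the EGR site, which 8.41% of windows held. The AP-1 site TGANTCA was in none of the 8 members and in 6.57% of windows. TATAAA, unlike the other motifs, was searched on the strand of the gene alone, and was in FOS, FOSB and JUNB and in 6.8% of windows. The sequence CCGGAA was also searched and was found in FOSB alone, against 14.5% of windows. Bases farther upstream were not searched, so a motif not found here may still lie there. A match is a description of the letters and not a measured site.

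The stretches of FOSB and FOS, of JUNB and of EGR1 are shown as examples of members that carry cores named above. FOSL2, JUN, JUND and EGR2 also carried TGACG, and their stretches are not shown. The stretches shown are chr19:45467746-45467994, chr14:75278578-75278773, chr19:12791236-12791485 and chr5:138465229-138465478, all on the plus strand of GRCh38.p14 and written 5′ to 3′. Capitals mark TGACG on either strand, the CArG boxes and GCGNGGGCG, and the stretches of FOS and FOSB stop before the first start in GENCODE.
FOSB: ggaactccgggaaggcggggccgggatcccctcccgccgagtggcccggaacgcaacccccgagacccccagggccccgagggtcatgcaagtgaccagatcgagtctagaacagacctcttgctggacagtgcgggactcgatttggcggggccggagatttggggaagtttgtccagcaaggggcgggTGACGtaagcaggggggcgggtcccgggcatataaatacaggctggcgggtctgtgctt
FOS: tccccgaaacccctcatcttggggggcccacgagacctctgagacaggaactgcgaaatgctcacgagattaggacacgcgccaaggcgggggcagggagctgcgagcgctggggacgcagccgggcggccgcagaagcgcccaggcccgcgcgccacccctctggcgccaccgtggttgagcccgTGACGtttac
JUNB: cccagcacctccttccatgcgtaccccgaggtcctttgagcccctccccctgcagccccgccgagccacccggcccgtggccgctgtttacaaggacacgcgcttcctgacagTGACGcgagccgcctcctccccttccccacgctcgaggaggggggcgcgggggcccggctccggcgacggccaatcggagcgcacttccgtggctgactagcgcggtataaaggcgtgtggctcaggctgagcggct
EGR1: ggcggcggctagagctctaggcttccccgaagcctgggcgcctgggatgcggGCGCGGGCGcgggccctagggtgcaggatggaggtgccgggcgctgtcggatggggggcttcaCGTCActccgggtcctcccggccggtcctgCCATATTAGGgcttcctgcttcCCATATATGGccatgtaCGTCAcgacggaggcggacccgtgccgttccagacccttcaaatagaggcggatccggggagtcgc

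Fold changes were counted over the 14413 genes with a mean normalized count of at least 20 across the 3 libraries, which 9 of the 10 members passed. EGR2 did not. A gene was counted as higher or lower when its log2 fold change, with a pseudocount of 1, lay beyond 1.2-fold. The study's methods name a cutoff of 1.2 for upregulated genes without giving its scale. It was read here as a linear fold and applied in both directions. In YA against control, 2 members were higher, FOSB and EGR3, where 17.4% of all genes tested were, and 1 was lower, JUN, where 16.4% were. These 3 of 9 stand beside 33.8% of genes past 1.2-fold in either direction, a share close to the background. In OA against control, 4 members were higher, FOSL1, FOSL2, JUNB and EGR3, beside 21.1% of genes, and 5 were lower, FOS, FOSB, JUN, JUND and EGR1, beside 21.5%. No member that passed the filter stayed within 1.2-fold in OA, where 42.6% of all genes tested were outside it. In YA against OA, 4 were higher, FOS, FOSB, JUND and EGR1, beside 23% of genes, and 3 were lower, FOSL1, FOSL2 and JUNB, beside 21.5%, or 7 of 9 beside 44.5% in either direction. At 2-fold, FOSB was higher in YA, where 2.15% of genes were higher, 0.971% lower and 3.12% either. FOS and FOSB were lower in OA, where 3.71% of genes were lower, 2.86% higher and 6.57% either. FOS and FOSB were also higher in YA than in OA, and FOSL1 lower, beside 4.43% of genes higher, 3.04% lower and 7.47% either. When the counting interval had to lie wholly beyond 1.2-fold, EGR3 in YA and JUNB in YA against OA were no longer counted. This left 1 member higher and 1 lower in YA (6.03% and 4.44% of genes), 4 and 5 in OA (9.04% and 9.08%), and 4 and 2 in YA against OA (10% and 9.03%). The median log2 fold change of the 9 members was 0.13 in YA, -0.46 in OA and 0.16 for YA against OA, and that of all genes tested was -0.02, 0.01 and -0.01. With EGR2 included the OA median of the members was 0.023, and their mean without it was -0.21, so the sign of that median rested on 1 gene.

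**Figure D1:**
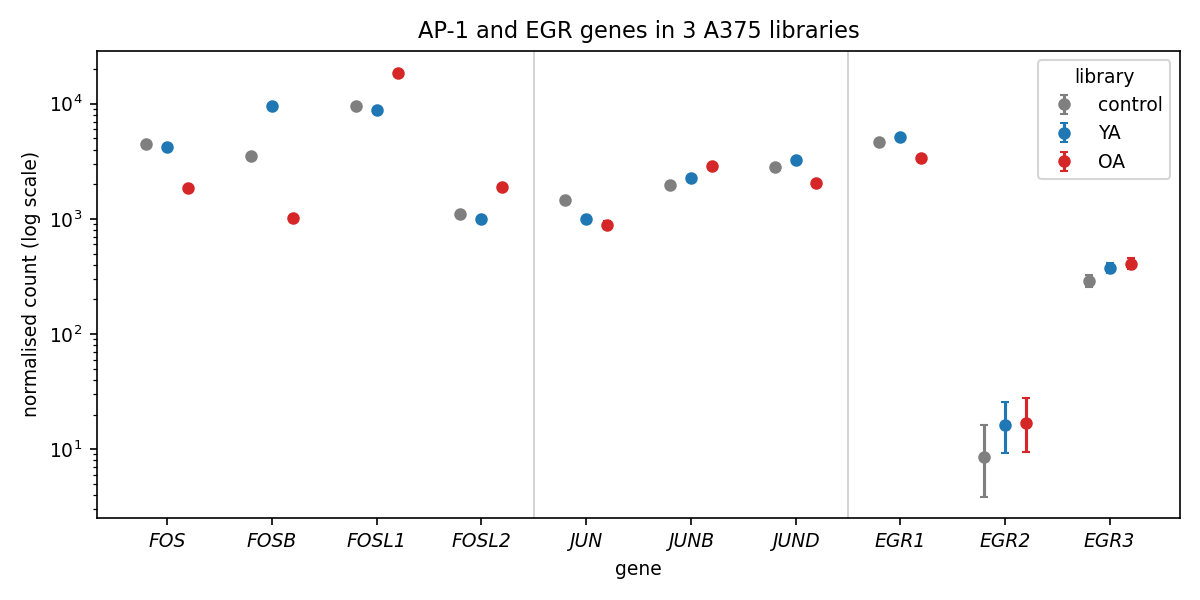
Normalized counts of the 10 members in the control, YA and OA libraries, on a log axis, with bars for the 95% exact Poisson interval of 1 library each (counting error only). FOSB ran from 1012 in OA to 9501 in YA, while FOSL1 was the highest member in control and OA, and EGR2 lay between 8.48 and 16.8.

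FOSB encodes a FOS family protein whose short splice form, made in stimulated neurons, is known for its stability. Its counts were 3695, 10053 and 902, or 3482, 9501 and 1012 after normalization. The control stood between the secretome libraries, with YA far above it and OA far below. FOSB was 2.73-fold higher in YA than in control (95% interval 2.63 to 2.83), and 102 of the genes tested had a larger log2 fold change. In OA it was 3.44-fold lower than in control (3.20 to 3.70), and 164 genes tested lay further down. Between the secretome libraries, FOSB was 9.38-fold higher in YA (8.77 to 10.1), a difference that 28 genes exceeded. It was the member with the largest difference in each of the 3 comparisons.

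FOS, the founding member and a textbook marker of recent stimulation, had 4735, 4411 and 1665 counts and 4462, 4169 and 1869 normalized counts. Control and YA lay close together and OA lay lower. FOS in YA was 0.934 of control (0.897 to 0.974), within 1.2-fold, and in OA it was 2.39-fold lower than control (2.26 to 2.53), with 354 genes tested further down. FOS and FOSB were thus both below control in OA, while in YA only FOSB left the 1.2-fold range.

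FOSL1, encoding FRA1, had 10048, 9388 and 16531 counts, or 9468, 8873 and 18556 normalized counts. YA was close to control at 0.937 (0.911 to 0.964), and OA was above both. In OA the gene was 1.96-fold higher than in control (1.91 to 2.01), with 432 genes tested higher still, and 2.09-fold higher than in YA (2.04 to 2.15).

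FOSL2, encoding FRA2, had the same order of libraries at a lower level, with 1167, 1065 and 1681 counts and 1100, 1007 and 1887 normalized counts. It was at 0.915 of control in YA (0.842 to 0.996) and 1.72-fold higher than control in OA (1.59 to 1.85). Against YA, OA was 1.88-fold higher (1.74 to 2.03). In OA, then, the FRA genes were the FOS family members above control, and FOS and FOSB those below it.

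JUN, the AP-1 partner that is itself switched on by JUN N-terminal kinases and AP-1, was the member more than 1.2-fold below control in both secretome libraries. Its counts were 1554, 1049 and 788, and its normalized counts 1464, 991 and 885. It was 1.48-fold lower than control in YA (1.37 to 1.60), where 709 genes tested lay further down, and 1.66-fold lower in OA (1.52 to 1.81). YA and OA differed by less than 1.2-fold for JUN, at 1.12 (1.02 to 1.23).

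JUNB, which antagonizes JUN on some promoters, had 2089, 2410 and 2556 counts and 1968, 2278 and 2869 normalized counts. It was highest in OA. The ratio to control was 1.16 in YA (1.09 to 1.23) and 1.46 in OA (1.38 to 1.55), and OA exceeded YA 1.26-fold (1.19 to 1.33).

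JUND, the JUN gene that cells express most steadily, had 2971, 3409 and 1818 counts, or 2800, 3222 and 2041 normalized counts. Unlike JUNB, it was lowest in OA. The ratio to control was 1.15 in YA (1.10 to 1.21), and in OA JUND was 1.37-fold lower than control (1.29 to 1.45). YA exceeded OA 1.58-fold (1.49 to 1.67).

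**Figure D2:**
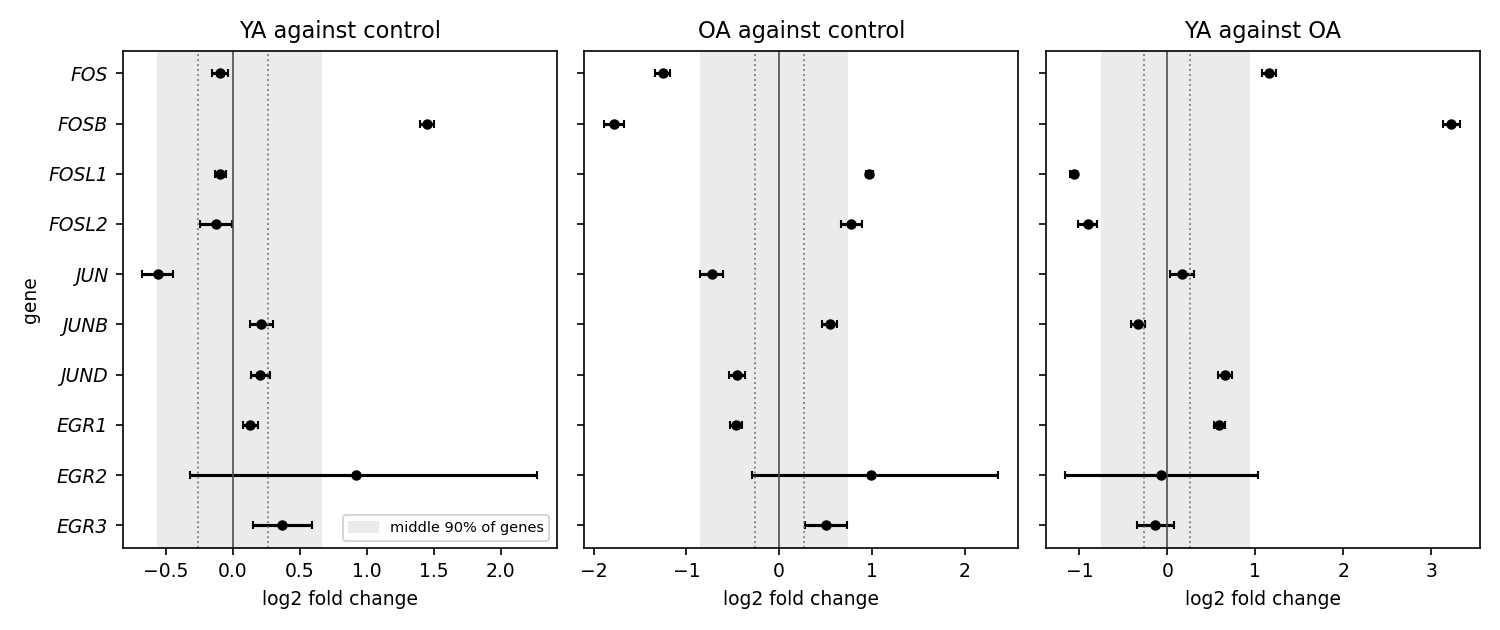
Ratio of normalized counts of each member on a log2 axis for YA against control, OA against control and YA against OA, with 95% Clopper-Pearson intervals (counting error only) and dotted lines at 1.2-fold. FOSB at 9.38-fold lies farthest from 1 in YA against OA, FOSL1 and FOSL2 lie on the opposite side there, and the interval of EGR2 is wide in each comparison.

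EGR1, the main EGR gene of most cells and a target of SRF, had 4945, 5384 and 3003 counts and 4660, 5088 and 3371 normalized counts. YA was near control at 1.09 (1.05 to 1.14), and OA was the lowest library. In OA, EGR1 was 1.38-fold lower than control (1.32 to 1.45), and YA exceeded OA 1.51-fold (1.44 to 1.58). EGR3 was present at 306, 394 and 364 counts, or 288, 372 and 409 normalized counts, with control lowest. Its ratio to control was 1.29 in YA (1.11 to 1.5) and 1.42 in OA (1.21 to 1.66), and YA and OA were within 1.2-fold of each other at 0.911 (0.788 to 1.05). EGR2 was close to the detection limit with 9, 17 and 15 counts. Its ratios to control of 1.90 in YA (0.799 to 4.82) and 1.99 in OA (0.814 to 5.15) had intervals that include 1, so a difference was not detectable at this depth.

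Levels of different genes were compared as normalized counts per kb of exon, since longer transcripts give more reads. The length was that of all annotated exons of a gene joined, which can exceed that of any single transcript. It was 3238 bases for FOS, 5553 for FOSB and 1887 for FOSL1, whose longest transcripts have 2158, 3775 and 1669. For JUND both were 1863. Ranks, family shares and ratios per kb rest on this choice, and transcript lengths would raise FOS and FOSB against JUND. FOSL1 was the highest member in each library, at 5018, 4702 and 9834 per kb. In control it was followed by JUND (1503) and EGR1 (1485), whose counting intervals overlap, then by FOS (1378), JUNB (1082) and FOSB (627). In YA, FOSB had reached 1711, with an interval overlapping that of JUND (1729), and stood above EGR1 (1622). In OA, FOSB was at 182, below FOSL2 (264) and JUN (250), which overlap, and JUNB (1576) was second. JUN ranked seventh in each library, at 414, 280 and 250, and EGR3 (59.4, 76.7 and 84.2) and EGR2 (2.30, 4.36 and 4.56) were the lowest members throughout.

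As a share of the FOS family's summed level per kb, FOSL1 made up 69.9%, 60.0% and 90.6%. The share of FOSB was 8.74%, 21.8% and 1.68%, and that of FOS 19.2%, 16.4% and 5.32%. FOSL2 stayed at 2.14%, 1.79% and 2.43%. The FOS family transcripts of the OA library were therefore mostly FOSL1. FOSL1 exceeded FOS per kb 3.64-fold, 3.65-fold and 17.0-fold, and FOSB by 8.0, 2.75 and 53.9. Shares of plain counts, which ignore length, were 51.1% (95% Wilson interval 50.4 to 51.8), 37.7% (37.1 to 38.3) and 79.6% (79.0 to 80.1) for FOSL1. For FOSB they were 18.8% (18.3 to 19.4), 40.3% (39.7 to 41.0) and 4.34% (4.07 to 4.63), so by plain counts FOSB was above FOSL1 in YA, the reverse of their order per kb.

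In the JUN family, JUND held the largest share per kb in control and YA, 50.1% and 53.0%, and JUNB in OA, 54%. JUN held 13.8%, 8.59% and 8.55%. The summed FOS family exceeded the summed JUN family by 2.39, 2.40 and 3.72. EGR1 was 96.0%, 95.2% and 92.4% of the EGR family.

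**Figure D3:**
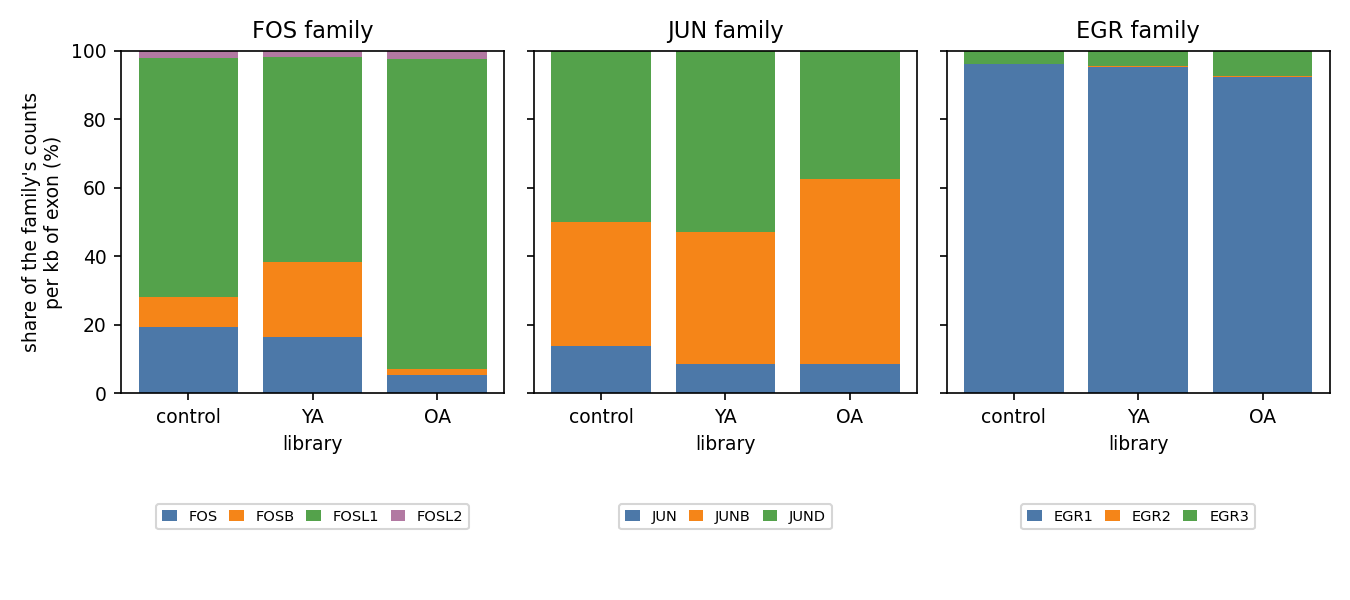
Share of each gene in the summed level per kb of exon of the FOS, JUN and EGR families, as stacked percentages in each library. FOSL1 is 60.0% of the FOS family in YA and 90.6% in OA, JUNB is above JUND in OA, and EGR1 makes up over 90% of the EGR family throughout.

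Of 14 other leucine zipper genes that can pair with AP-1 proteins, 11 passed the filter, 4 were higher and 3 lower in YA, and 3 were higher and 2 lower in OA, with medians of -0.07 (mean 0.04) and 0.02. Of all genes tested, 17.4% were higher and 16.4% lower in YA, and 21.1% and 21.5% in OA, against which the other lists are also to be read. ATF3, a stress-responsive partner of JUN proteins, had 1007, 3207 and 462 counts. It followed the order of FOSB, 3.19-fold higher than control in YA (2.97 to 3.43) and 1.83-fold lower in OA (1.64 to 2.05). JDP2, which dimerizes with JUN and represses, had 70, 168 and 76 counts and was 2.41-fold higher in YA (1.81 to 3.23). MAF, a large MAF protein, was 1.60-fold lower in YA (1.44 to 1.79) and 4.92-fold lower in OA (4.13 to 5.89), at 879, 546 and 150 counts. BATF3 had 50, 32 and 65 counts, and MAFF, a small MAF protein, had 771, 745 and 702. The partners past 1.2-fold did not share 1 order over the libraries.

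The EGR paralog EGR4 was at or under the floor of 3 counts in each library. NAB2, an EGR target that feeds back on EGR1, had 1140, 848 and 973 counts and was 1.34-fold lower than control in YA (1.23 to 1.47), and its ratio in OA was 1.02 (0.932 to 1.11). NAB1, at 744, 721 and 617 counts, stayed within 1.2-fold in both.

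The known activators of these promoters, SRF, its ETS and MRTF partners and the CREB family, differed little at the transcript level. Of 10 listed, 9 passed the filter, none was past 1.2-fold in YA and 1 was higher in OA, CREM, with 559, 520 and 624 counts. Their medians were -0.08 and 0.02. Of 25 kinases of the MAP kinase cascades, 23 passed. In YA 6 were higher and 2 lower, and in OA 5 were higher and 1 was lower, with a median of 0.06 in each. BRAF itself had 1090, 1214 and 880 counts. RPS6KA2, an RSK kinase that acts downstream of ERK, had 368, 494 and 123 counts and was 2.51-fold lower than control in OA (2.04 to 3.11). The p38 kinase gene MAPK12 was 1.49-fold higher in YA (1.32 to 1.69) and 1.55-fold higher in OA (1.36 to 1.76). Messenger RNA levels do not measure the activity of these kinases.

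Among 10 genes that act on the decay of these short-lived transcripts or the turnover of their proteins, all of which passed, 3 were higher and 1 lower in YA, and none was higher and 3 were lower in OA. ZFP36, encoding tristetraprolin, which promotes decay of AU-rich messages such as that of FOS, had 852, 1462 and 565 counts. It was 1.72-fold higher than control in YA (1.58 to 1.88) and 1.27-fold lower in OA (1.14 to 1.41). ITCH, a ubiquitin ligase that acts on JUN and JUNB, was 1.34-fold lower in OA (1.23 to 1.47).

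Of 26 other immediate early genes, 25 passed the filter. In YA 12 were higher and 2 lower, beside 17.4% and 16.4% of all genes tested, with a median of 0.24. In OA 11 were higher and 9 lower, beside 21.1% and 21.5%, and the median of 0.15 and the mean of -0.03 differed in sign. KLF4, a zinc finger factor, had 1490, 3552 and 445 counts and was 2.39-fold higher in YA (2.25 to 2.54) and 2.81-fold lower in OA (2.53 to 3.13). KLF6 was 1.30-fold higher in YA (1.25 to 1.36) and 1.89-fold lower in OA (1.78 to 2.01). Both had the order of FOSB. NR4A1, an orphan nuclear receptor, was instead above control in both, 2.19-fold in YA (2.05 to 2.33) and 1.38-fold in OA (1.29 to 1.49). GADD45B, a stress gene, was within 1.2-fold in YA and 2.21-fold higher in OA (1.89 to 2.58). DUSP1, NR4A2 and PPP1R15A, chosen after their values were seen, also lay above control in YA and below it in OA. The DUSP1 phosphatase switches off MAP kinases and had 681, 1058 and 385 counts. NR4A2 had 756, 1225 and 319, and PPP1R15A, a stress-induced phosphatase subunit, 5863, 8307 and 3117.

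**Figure D4:**
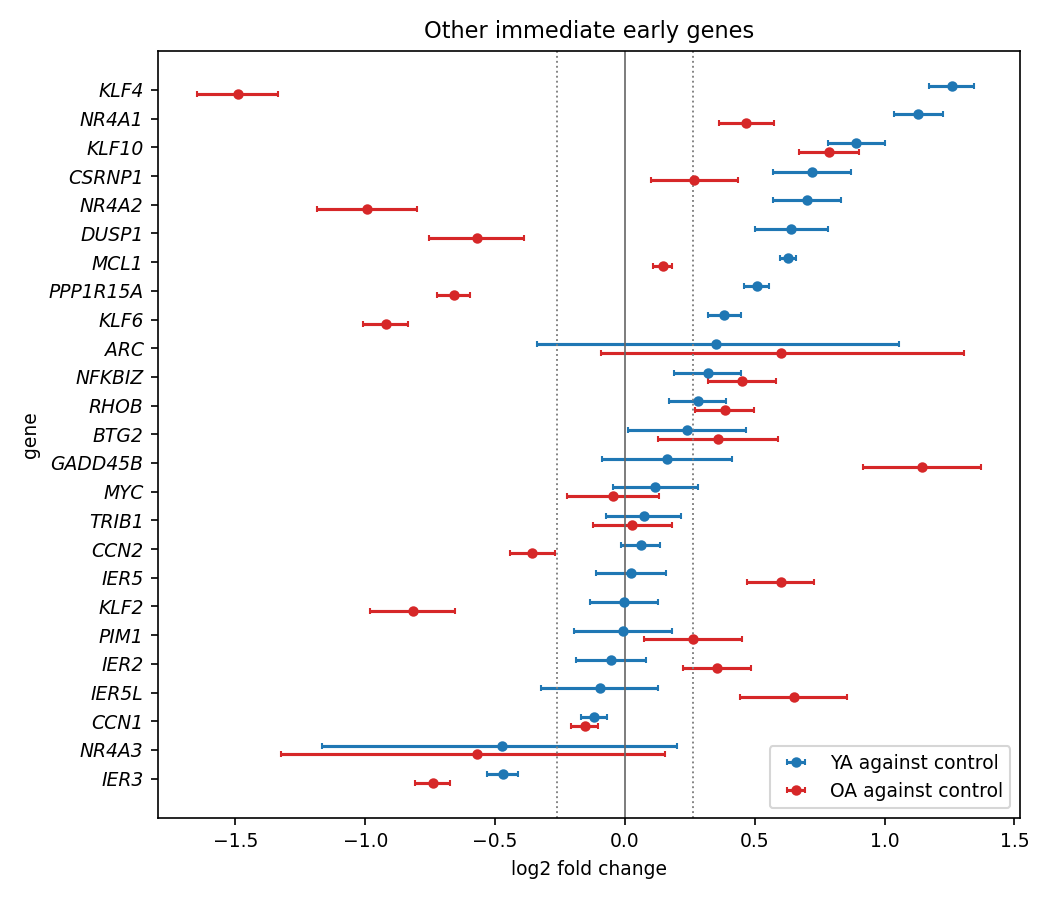
Log2 fold change against control, in YA and in OA, of immediate early genes that passed the filter. KLF4, KLF6, NR4A2, DUSP1 and PPP1R15A were above 0 in YA and below 0 in OA. Among the members FOSB had this order too, and FOSL1 and FOSL2 were above 0 in OA with YA near 0. Both comparisons use the same control library.

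Of 30 known AP-1 target genes, 26 passed the filter. In YA 10 were higher and 7 lower, beside 17.4% and 16.4% of all genes tested, with a median of 0.04, and among the 10 was MMP9, at 1 and 3 counts, which is too few for a fold (the median was -0.05 over the 25 others). In OA 16 were higher, 3 lower and 7 within 1.2-fold, beside 21.1% of all genes higher and 21.5% lower, with a median of 0.55 and a mean of 1.10. In YA against OA 2 were higher and 17 lower, beside 23% and 21.5%, with a median of -0.59. CXCL8, encoding the chemokine IL-8, had 401, 495 and 7523 counts and was 22.3-fold higher in OA than in control (20.2 to 24.8). IL6 had 5, 10 and 65 counts and was 15.5-fold higher in OA (6.31 to 49.3). MMP9, a gelatinase, had 1 count in control and 92 in OA, a ratio of 109.6 with a wide interval of 19.2 to 4375. These genes are also targets of other factors, and MMP1, a classical AP-1 target chosen after its values were seen, was lower than control in both, at 82, 15 and 18 counts. A link between these targets and the levels of the AP-1 genes was not tested.

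Of 12 known EGR1 targets, all passed, 5 were higher and 3 lower in YA (median 0.17), and 6 were higher and 3 lower in OA (median 0.21). GDF15, a stress cytokine, was above control in both, 4.79-fold in YA (3.75 to 6.17) and 2.89-fold in OA (2.22 to 3.80). PDGFB, a growth factor, was 4.27-fold lower in OA (3.07 to 6.08), at 219, 191 and 43 counts. ICAM1, an adhesion molecule also controlled by NF-kappaB, was 2.70-fold higher in OA (2.51 to 2.91). FN1, encoding fibronectin, had 3553, 5167 and 1620 counts, above control in YA and 1.84-fold below it in OA (1.74 to 1.95).

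**Figure D5:**
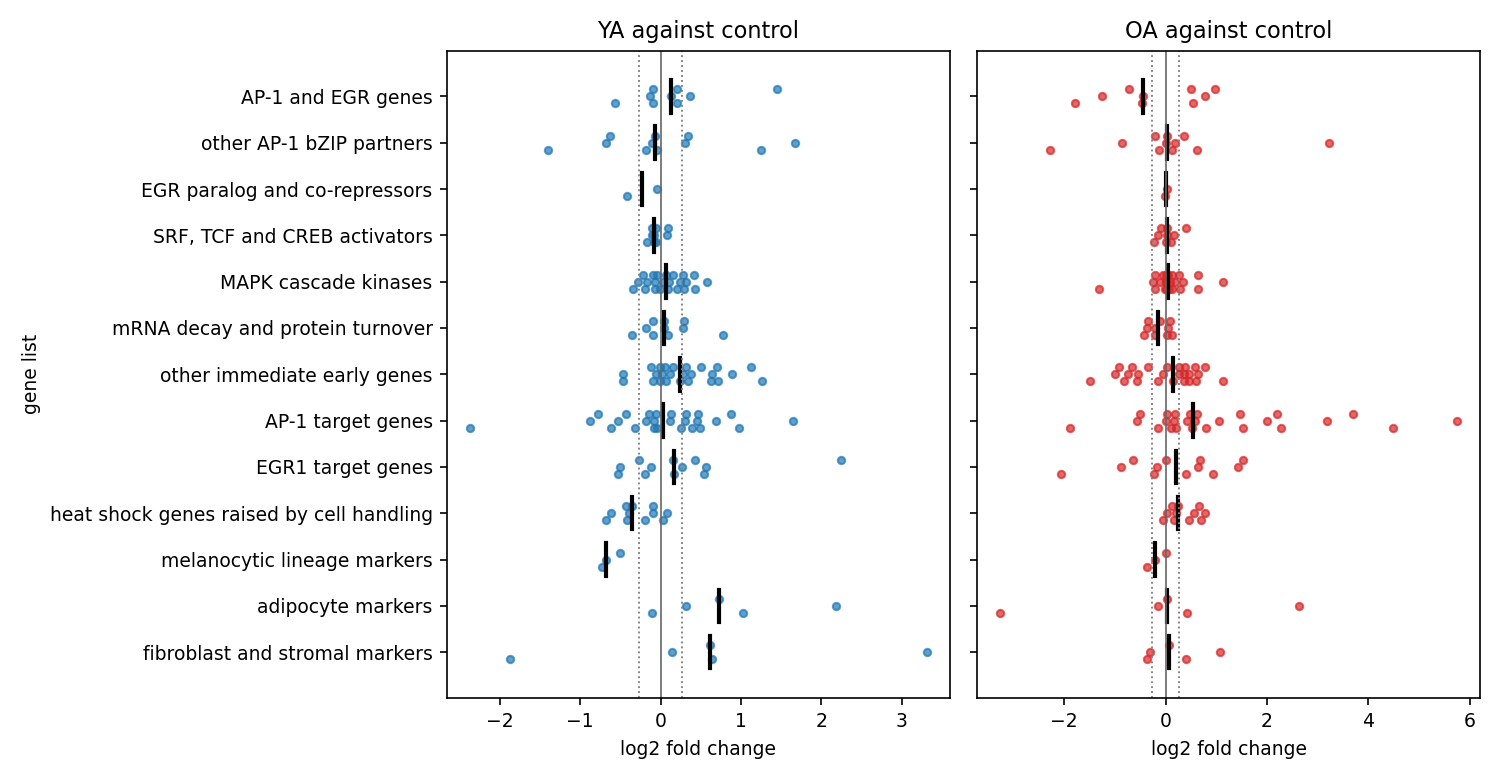
Median log2 fold change of the members and of the 12 other gene lists for YA and OA against control, over the genes of each list that passed the filter. The AP-1 targets have the largest OA median of the pathway lists, 0.55. The members have -0.46, which becomes 0.023 when EGR2 is included, and the heat shock list has -0.35 in YA and 0.25 in OA.

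Other gene groups differed between the same libraries. Of 11 heat shock genes that are raised by the handling of cells, all of which passed, none was higher and 6 were lower in YA, and 5 were higher and none lower in OA. Their summed normalized counts were 124569, 102162 and 155594. HSP90AA1 was 1.59-fold higher in OA (1.56 to 1.61) and HSPB1 1.62-fold (1.55 to 1.70), and DNAJA1 was 1.60-fold lower in YA (1.54 to 1.67). The summed level of the 9 melanocytic markers was 2375, 1550 and 2040. The 9 adipocyte markers summed to 4184, 4479 and 4052, with LEP at 0 counts in the 3 libraries and ADIPOQ at 1, 0 and 0, and most of the sum was ADIPOR2, at 3738, 3476 and 3189 counts. Of the 5 adipocyte markers that passed the filter, 4 were higher and none lower in YA (median 0.73), and 2 were higher and 1 lower in OA. LPL had 353, 583 and 30 counts, PLIN4 284, 579 and 321, CIDEC 6, 31 and 36, and FABP4, which did not pass, 16, 15 and 2. The 10 fibroblast and stromal markers summed to 715, 905 and 660, with COL1A2 at 1, 1 and 2 counts and COL3A1 at 0, 1 and 1, but DCN, a matrix proteoglycan, at 13, 138 and 24. Of the 5 that passed, 3 were higher and 1 lower in YA, with log2 fold changes from -1.87 to 3.31. In OA 2 of them were higher and 2 lower, from -0.37 to 1.08, so DCN does not stand for the list. HSPA1A and HSPA1B, both in the heat shock list, are near-identical copies whose counts are uncertain. The part of these groups in the values of the members was not tested.

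The genes most like each of the 3 members of widest range were taken by the Euclidean distance of their log2 normalized counts, centered on their own mean, over the 3 libraries and among 11162 genes with a mean normalized count of at least 100. For FOSB these were KLF4 (distance 0.344), ITGA10 (0.406) and HAPLN1 (0.458), for FOS ZNF69 (0.0102), PPP1R1B (0.0144) and HLA-DRB1 (0.0224), and for FOSL1 AKR1C3 (0.0513), CHST7 (0.0721) and IKZF2 (0.0731). FOSB spanned 3.23 on the log2 scale, against 1.26 for FOS and 1.06 for FOSL1, and its nearest genes lay farther from it than those of FOS and FOSL1 did from theirs. Likeness over 3 libraries is a description of those libraries.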

How the data were processed

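Poly(A) RNA libraries of A375 cells, 1 per group, were made with an Agilent SureSelect kit and sequenced on a NovaSeq, and the cells had been trypsinized before RNA extraction. The deposited table held whole-number, unnormalized read counts for each gene with its Ensembl identifier and symbol. The submitters' processing notes name STAR 2.5.1b, featureCounts, R 3.6.1 and hg38, and the annotation release and the use of strand were not given in the sources used here. Here, counts were scaled with DESeq2 1.42.0 in R 4.3.3. No replicate test, edgeR's quasi-likelihood test included, was possible with 1 library per group. Log2 fold changes used a pseudocount of 1 over genes with a mean of at least 20, in Python 3.11.15 with numpy 2.4.6, pandas 2.3.3 and scipy 1.17.1, and the steps were tested on simulated data. Clopper-Pearson, Poisson and Wilson intervals treat reads as independent counts and cover counting error only. Without molecular identifiers PCR copies of a molecule are counted again, which can make these intervals too narrow even for that error. GENCODE 29 matched 57433 of the 58037 identifiers. The members and gene lists were chosen with earlier results of these data known. All members were named, and from each other list up to 4 genes with the counting interval farthest beyond 1.2-fold in YA or OA, plus close partners. Not all genes that this rule names are reported here. Alternatives were edgeR 4.0.16 TMM and total-count scaling, a pseudocount of 5, other filters and cutoffs, and a length and GC correction.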

Additional observations from a re-analysis of the deposited data

Results flagged for a closer look

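The search covered the members, up to 4 genes per other list with the interval farthest beyond 1.2-fold, and DUSP1, NR4A2 and PPP1R15A. These last were chosen after their values were seen. How many of all genes tested had the same order was not counted, so the number of genes below is not a result. The following genes lay at least 1.2-fold above control in YA and at least 1.2-fold below it in OA, so that the libraries moved to opposite sides of their shared control. With 1 library per group the difference between the effects was not tested. Among the members this held for FOSB, with a log2 fold change of YA against OA of 3.23. Among the other lists it held for the AP-1 partner ATF3 (2.54), the kinase RPS6KA2 (1.75) and the decay factor ZFP36 (1.12). Of the immediate early genes, KLF4 (2.75), NR4A2 (1.69), KLF6 (1.30), DUSP1 (1.21) and PPP1R15A (1.17) had the same order, as did the EGR1 target FN1 (1.42). LPL, encoding lipoprotein lipase and listed as an adipocyte marker, had the widest such difference among the genes searched, at 3.99. Its counts were 353, 583 and 30 for control, YA and OA.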

How the results depend on the processing

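With 1 library per group, no spread between cultures could be measured, and depth limited EGR2 most. When a pseudocount of 5, total-count scaling or TMM was used instead, the fold changes of the 10 members kept their direction and their side of 1.2-fold. A length and GC correction moved 7 of these values beyond their counting interval and changed no call. For YA against control they were FOSB (1.39), JUNB (0.12) and JUND (0.12), for OA against control FOSL1 (0.88), JUNB (0.43) and JUND (-0.57), and for YA against OA FOSL1 (-1.01), all as log2 values.

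At 2-fold, 1 member was higher and 0 lower in YA, 0 higher and 2 lower in OA, and 2 higher and 1 lower in YA against OA. With the counting interval wholly beyond 1.2-fold, 1 member was higher in YA. Among all genes, 2501 were higher and 2370 lower in YA, 3048 and 3092 in OA, and 3315 and 3104 in YA against OA. At 2-fold these were 310 and 140, 412 and 535, and 639 and 438. With the interval wholly beyond 1.2-fold they were 869 and 640, 1303 and 1308, and 1444 and 1301. Without a filter they were 9661 and 9306, 8340 and 10895, and 10917 and 8049. With a minimum mean of 100 they were 1404 and 1451 in YA, 1947 lower in OA, and 1991 higher in YA against OA. Over the genes of the other lists, 47 were higher and 29 lower in YA, 51 and 25 in OA, and 34 and 50 in YA against OA. At 2-fold these were 9 and 3, 17 and 6, and 13 and 14, and by the interval 25 and 18 in YA.

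Without a filter, EGR2 joined the members and their OA median turned from -0.46 to 0.023, and the median of the fibroblast markers for YA against OA turned from 0.52 to -0.43. By plain counts the share of FOSB in the FOS family was 18.8%, 40.3% and 4.34% for control, YA and OA, and that of FOSL1 51.1%, 37.7% and 79.6%. No paired analysis was possible because each group had 1 library.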
